A study of Saccharomyces cerevisiae with 8 samples.

Results

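The 10 genes described here build the yeast cell wall or guard it: FKS1, GAS1, GAS5, KRE6, CRH1 and CHS3 make or join its polysaccharides, CWP1 and PIR3 encode proteins of the wall itself, YPS1 encodes a protease at the cell surface, and SLT2 encodes the kinase of the cell wall integrity pathway. They were chosen by name, with earlier results of these data known. All 10 were found among the 5449 genes of Saccharomyces cerevisiae with a probe set on the array. Each had a single probe set, above background on all 8 arrays. Total RNA was measured on 2 arrays for each of 3 isolates, called evolved strains 1, 2 and 3, and on 2 arrays of the strain from which they were derived, labelled parental. The labels name BY4742 as the parent. It is a haploid laboratory strain of mating type alpha that needs added histidine, leucine, lysine and uracil. The evolved strains were single isolates taken after approximately 450 generations in a broth of 2% glucose and 0.5% ammonium sulfate, kept at 30 °C in 100 ml by moving 10 µl to a new flask each day. The same broth, temperature, culture volume and transfer volume are listed for the parental samples, without a number of generations. The labels list exposure to high glucose for all 4 groups, the parental one included. The comparison asks how isolates from long growth in glucose differ from their parent, and each evolved strain stands for 1 isolate.

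The wall of budding yeast is a mesh of glucan, with a little chitin, covered by mannoproteins. Glucan chains are made at the plasma membrane by a synthase that the small GTPase Rho1 switches on, and enzymes outside the membrane then elongate, branch and cross-link them. When the wall is weakened, sensors of the Wsc and Mid families act through Rho1 and Pkc1 on a kinase cascade that ends in Slt2, which turns on the transcription factors Rlm1 and Swi4-Swi6 and through them many wall genes.

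The deposited values, made by the authors with RMA, were taken to log2, and a level below means log2 intensity. A gene was called changed at an adjusted p under 0.05 with limma, fitted to all 5449 genes and 8 arrays and adjusted by Benjamini-Hochberg within a comparison. Across genes, r was 0.9993 to 0.9994 between the 2 arrays of an evolved strain. It was 0.993 to 0.996 between arrays of different evolved strains, 0.912 to 0.923 between evolved and parental arrays, and 0.997 within the parental pair. Some marker genes went against the label BY4742. LYS2, which that strain lacks, was above background in both groups and had a level of 11.48 ± 0.12 in the evolved arrays (SD, n = 6), against 9.07 ± 0.04 in the parental ones (SD, n = 2). MET17, which is not among the genes that strain lacks, exceeded background on only 1 evolved and 1 parental array (means 4.04 and 4.33). Of the other markers of this kind, HIS3 had means of 12.9 in the evolved and 11.39 in the parental arrays, and LEU2 of 5.3 and 5.33. URA3 was at background on all 8 arrays. MFA2, which encodes the pheromone of the other mating type, a, stood at 6.96 ± 0.12 in the evolved arrays (SD, n = 6) and at 12.57 ± 0.05 in the arrays labelled parental (SD, n = 2). MFA1, the other gene for that pheromone, differed less, with means of 10.47 in the evolved and 12.36 in the parental arrays. The mating-type genes were mixed: of 7 a-specific genes 6 were lower in the evolved arrays and STE6 was higher, and of 4 alpha-specific genes 3 were higher and SAG1 was lower. All 7 a-specific genes exceeded background on all 6 evolved arrays. On the arrays labelled parental, MF(ALPHA)1, an alpha pheromone gene, did not exceed background, but STE3 and SAG1 did, at 7.11 and 7.93. MF(ALPHA)2, the other alpha pheromone gene, had a parental mean of 4.88. On the evolved arrays MF(ALPHA)1 and MF(ALPHA)2 were also low, with means of 5.52 and 5.51, against 10.47 for MFA1. STE3 and SAG1 had evolved means of 7.59 and 7.75. Marker genes thus went against the label in the evolved arrays as well as in the parental ones. The parental arrays stand behind every difference from parental below, and what this mismatch adds to those differences was not tested. Comparisons among the evolved strains use no parental level, but the parental arrays enter the estimate of the spread behind their p-values. In RNA of a whole culture, a change in the share of cells in one state and a change in RNA per cell cannot be told apart.

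Of the 10 genes, 8 were higher in the mean of the evolved strains than in the arrays labelled parental, and CWP1 and CHS3 were lower. Across the 5449 genes the shares called were 43.3% higher and 43.4% lower, so that a call alone says little, and the sizes carry more. YPS1, GAS5, GAS1, PIR3 and FKS1 rose by at least 2-fold, which 10.9% of all genes did, and CWP1 fell by at least 2-fold, which 9.95% of all genes did. The median log2 difference of the 10 genes was 0.94, against -0.0056 over all genes tested. Because the 10 genes were chosen with earlier results of these data known, these shares and medians describe them and test nothing. CRH1 rose by 1.57-fold, and KRE6, SLT2 and CHS3 moved by 1.22-fold, 1.14-fold and 1.13-fold. Another fit to the 8 arrays took the strain as a random block, with 1 correlation within strains (0.854) estimated over all genes. There, KRE6, SLT2 and CHS3 were no longer called (adjusted p = 0.153, 0.241 and 0.331). Its standard errors ran from 0.128 (SLT2) to 0.318 (GAS1), against 0.03 (GAS5) to 0.08 (GAS1) in the main fit. Standard errors and p-values given below without a setting are those of the main fit. They measure the spread between arrays of a group, not between strains.

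**Figure D1:**
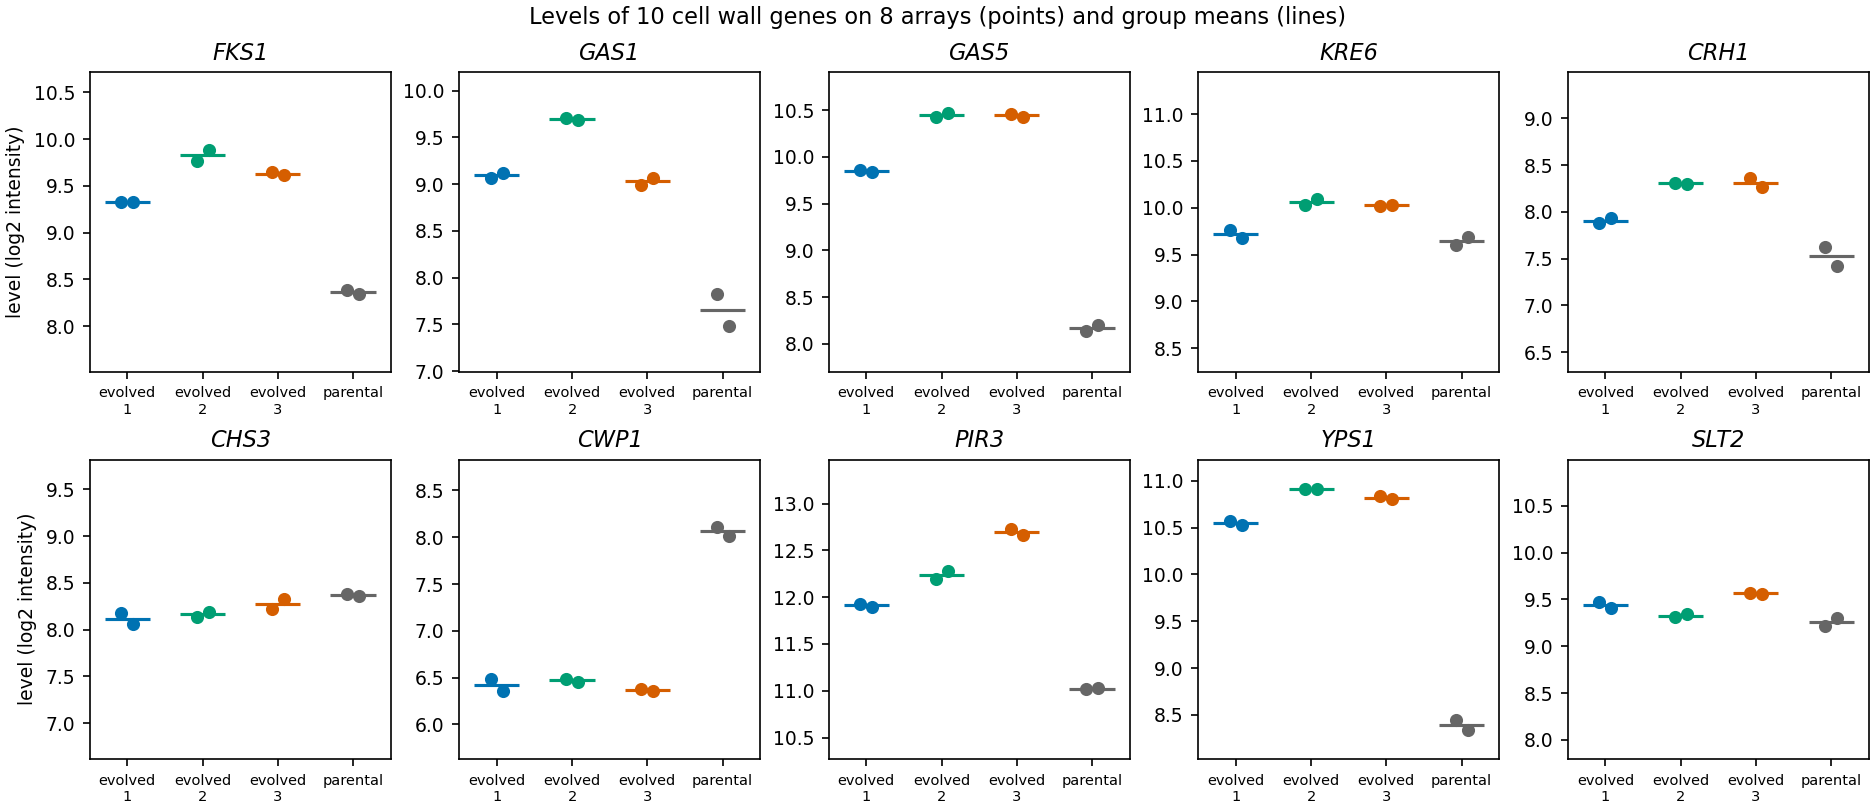
Level of each gene (log2 intensity, vertical axis) on every array, by strain. Points are arrays, lines are means of 2 arrays, and each panel spans the same number of log2 units. CWP1 lies near 6.4 in all evolved arrays and near 8 in both parental arrays, whereas YPS1, GAS5, GAS1, FKS1 and PIR3 lie above the parental arrays in each evolved strain.

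FKS1 (YLR342W) encodes the catalytic subunit of the glucan synthase used during vegetative growth. Its level was 9.32 and 9.33 in evolved strain 1, 9.77 and 9.88 in strain 2, 9.64 and 9.62 in strain 3, and 8.39 and 8.35 in the arrays labelled parental. All 6 evolved arrays lay above both parental arrays, as they did for 38.2% of all genes. The mean of the evolved strains was 1.23 ± 0.03 higher (log2, SE; adjusted p = 9.4e-08), or 2.34-fold. With the strain as a random block the standard error of this difference was 0.179, and FKS1 stayed called.

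GAS1 and GAS5 encode glucanosyltransferases, surface enzymes that lengthen the glucan chains after synthesis. GAS1 (YMR307W) stood at 9.07 and 9.12 on the strain 1 arrays, 9.71 and 9.68 on those of strain 2, 8.99 and 9.07 on those of strain 3, and 7.82 and 7.48 on the arrays labelled parental. The groups did not overlap, but the parental pair lay further apart than any evolved pair of this gene. The difference was 1.62 ± 0.08 (log2, SE; adjusted p = 1.55e-06), or 3.08-fold, and it lay between 1.45 and 1.79 over the alternatives tried. GAS5 (YOL030W) had levels of 9.86 and 9.84 on the strain 1 arrays, 10.42 and 10.47 on those of strain 2, 10.46 and 10.43 on those of strain 3, and 8.14 and 8.20 on the arrays labelled parental. It rose 4.23-fold, by 2.08 ± 0.03 (log2, SE; adjusted p = 7.98e-09), and was the gene with the 83rd highest difference of the 5449.

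KRE6 (YPR159W) acts in the synthesis of the branched glucan that ties mannoproteins into the wall. Its level was 9.76 and 9.68 on the strain 1 arrays, 10.02 and 10.09 on those of strain 2, 10.02 and 10.03 on those of strain 3, and 9.61 and 9.69 on the arrays labelled parental. Strain 1 overlapped the parental arrays, and strains 2 and 3 lay above them. KRE6 was not called in strain 1, at a log2 difference of 0.07 ± 0.05 (SE; adjusted p = 0.184), and was higher by 0.41 ± 0.05 in strain 2 and 0.38 ± 0.05 in strain 3 (adjusted p = 0.000113 and 0.000173).

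CRH1 (YGR189C) encodes an enzyme that links chitin to glucan, and CHS3 (YBR023C) the catalytic subunit of the synthase that makes most of the chitin of the wall. CRH1 stood at 7.88 and 7.93 on the strain 1 arrays, 8.31 and 8.30 on those of strain 2, 8.36 and 8.26 on those of strain 3, and 7.63 and 7.42 on the arrays labelled parental, with no overlap. It rose by 0.65 ± 0.06 (log2, SE; adjusted p = 2.98e-05) on average. CHS3 had levels of 8.18 and 8.06 on the strain 1 arrays, 8.14 and 8.19 on those of strain 2, 8.22 and 8.33 on those of strain 3, and 8.38 and 8.36 on the arrays labelled parental. Its evolved arrays all lay below the parental ones, in strain 3 by little. It differed by -0.18 ± 0.04 (log2, SE; adjusted p = 0.00692) on average, was called lower in strains 1 and 2 (adjusted p = 0.00425 and 0.0105), and was not called in strain 3, at -0.09 ± 0.05 (adjusted p = 0.161). Without the first array of strain 2, CHS3 was not called in that strain (adjusted p = 0.0624), and after quantile normalization over the tested genes or median centring it was called in strain 3, at -0.20 and -0.16.

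CWP1 (YKL096W) encodes a mannoprotein bound to the wall glucan. It was the only one of the 10 genes to fall by at least 2-fold, with levels of 6.48 and 6.36 on the strain 1 arrays, 6.49 and 6.45 on those of strain 2, 6.38 and 6.35 on those of strain 3, and 8.11 and 8.02 on the arrays labelled parental. The 6 evolved arrays lay between 6.35 and 6.49, far below both parental arrays. All 6 evolved arrays were below both parental arrays for 38.9% of all genes. The difference of -1.64 ± 0.04 (log2, SE; adjusted p = 5.96e-08) is a 3.12-fold lower level in the evolved strains. PIR3 (YKL163W) encodes a protein with internal repeats that is joined directly to glucan. Its level was 11.93 and 11.90 on the strain 1 arrays, 12.20 and 12.28 on those of strain 2, 12.72 and 12.66 on those of strain 3, and 11.02 and 11.03 on the arrays labelled parental. The 3 evolved strains lay apart from each other as well as above the parental arrays, and the mean difference was 1.26 ± 0.03 (log2, SE; adjusted p = 6.8e-08), or 2.4-fold.

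YPS1 (YLR120C) encodes a yapsin, an aspartic protease anchored at the cell surface that processes wall proteins. It showed the largest change of the 10 genes, with levels of 10.57 and 10.53 on the strain 1 arrays, 10.92 and 10.91 on those of strain 2, 10.84 and 10.80 on those of strain 3, and 8.44 and 8.34 on the arrays labelled parental. All evolved arrays were over 2 log2 units above both parental arrays, and the mean difference was 2.37 ± 0.03 (SE; adjusted p = 7.98e-09), or 5.18-fold. YPS1 had the 42nd highest difference of the 5449 genes. SLT2 (YHR030C), the mitogen-activated kinase, moved little: its level was 9.47 and 9.41 on the strain 1 arrays, 9.31 and 9.34 on those of strain 2, 9.57 and 9.56 on those of strain 3, and 9.22 and 9.30 on the arrays labelled parental. The lower array of strain 2 lay close to the higher parental array, and the groups did not overlap. SLT2 was called higher in strain 1 (0.18 ± 0.04, adjusted p = 0.00366) and strain 3 (0.31 ± 0.04, adjusted p = 0.000245) and was not called in strain 2 (0.07 ± 0.04, log2, SE; adjusted p = 0.143). Without the second parental array SLT2 was called in strain 2, at 0.11 (adjusted p = 0.0348), and after quantile normalization over the tested genes the difference there was -0.019.

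**Figure D2:**
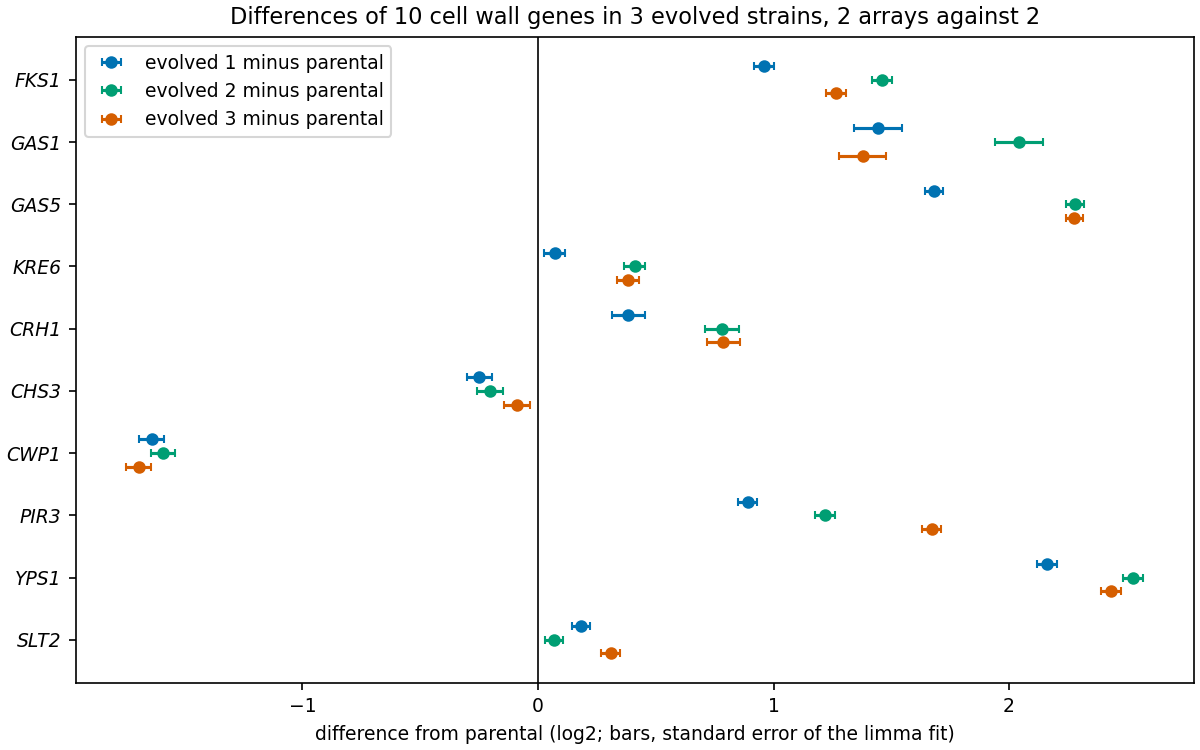
Log2 difference of each gene (rows) between each evolved strain and the arrays labelled parental (horizontal axis), 2 arrays against 2. Bars are standard errors of the limma fit to all 8 arrays, in which the groups share the spread. YPS1 and GAS5 lie furthest to the right and CWP1 furthest to the left in every strain, while KRE6, SLT2 and CHS3 lie near 0.

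By strain, the 10 genes split into 7 called higher and 2 called lower in strain 1, 7 and 2 in strain 2, and 8 and 1 in strain 3, where 40.6%, 42.5% and 43.0% of all genes were called higher and 43.9%, 42.6% and 41.1% lower. The 3 comparisons share the same 2 parental arrays. YPS1 rose by 2.16, 2.53 and 2.43 (log2) in strains 1, 2 and 3, GAS5 by 1.68, 2.28 and 2.28, GAS1 by 1.44, 2.04 and 1.38, PIR3 by 0.89, 1.22 and 1.67, and FKS1 by 0.96, 1.46 and 1.27. The difference of CWP1 was nearly the same in each, at -1.64, -1.59 and -1.70.

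The evolved strains were then compared with each other. A moderated F test called 8 of the 10 genes different among the 3 evolved strains, and 68.9% of all genes; CWP1 and CHS3 were not called (adjusted p = 0.235 and 0.0798). After quantile normalization CWP1 was called lower in strain 3 than in strain 1 (-0.17, adjusted p = 0.0329), and in a fit on the arrays of strains 3 and 2 alone lower in strain 3 (-0.10, adjusted p = 0.0417). By pair, 7 genes were higher and SLT2 lower in strain 2 than in strain 1 (29.8% and 22.9% of all genes), 8 were higher and none lower in strain 3 than in strain 1 (33.1% and 24.4%), and 2 were higher and 2 lower in strain 3 than in strain 2 (17.5% and 14.5%). Differences were small, at most 1.72-fold between the highest and the lowest strain. Strain 1 was lower than both other strains in FKS1, GAS5, YPS1, CRH1, KRE6 and PIR3, that is in 6 of the 10 genes, where 21.4% of all genes were called in this way. Strain 2 was above both others in FKS1 and GAS1 (7.47% of all genes) and below both in SLT2 (6.55%), and strain 3 was above both others in SLT2 and PIR3 (10.2%). These 6 genes kept both calls under every alternative tried, the fits that left out an array included.

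PIR3 was highest in strain 3 and lowest in strain 1, with strain 2 above strain 1 by 0.33 ± 0.04 and strain 3 above strain 2 by 0.45 ± 0.04 (log2, SE; adjusted p = 0.00105 and 0.000816). The difference of 0.78 between strains 3 and 1 was the 9th highest of all genes in that comparison. GAS1 was highest in strain 2, by 0.60 ± 0.10 over strain 1 and with strain 3 at -0.66 ± 0.10 from strain 2 (log2, SE; adjusted p = 0.00344 and 0.00486). Strains 3 and 1 were not called different (-0.07 ± 0.10, adjusted p = 0.602). The spread behind these values is shared by all 4 groups, and for GAS1 the SD was 0.24 in the parental pair, 0.04 in strain 1 and 0.05 in strain 3. FKS1 was highest in strain 2, then strain 3, then strain 1. The difference of -0.19 between strains 3 and 2 was not called without the second array of strain 2 or without either array of strain 3 (adjusted p = 0.0694 to 0.09).

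GAS5, CRH1 and KRE6 shared a pattern in which strains 2 and 3 lay together above strain 1. GAS5 was higher by 0.60 ± 0.04 (log2, SE) in both, CRH1 by 0.40 ± 0.07 in both, and KRE6 by 0.34 ± 0.05 and 0.31 ± 0.05. Between strains 3 and 2 these genes differed by -0.0023, 0.0059 and -0.029. YPS1 was higher than in strain 1 by 0.36 ± 0.04 in strain 2 and 0.27 ± 0.04 in strain 3. SLT2 was ordered differently, highest in strain 3 and lowest in strain 2, with a difference of 0.24 ± 0.04 (log2, SE; adjusted p = 0.00599). Its differences from strain 1, at -0.12 for strain 2 and 0.12 for strain 3, were near the threshold (adjusted p = 0.0443 and 0.0314) and were lost under several alternatives, as was that of CHS3 between strains 3 and 1 (0.16 ± 0.05, adjusted p = 0.0438). With the replicate number as a block these 3 calls were lost at adjusted p = 0.0682, 0.0505 and 0.067.

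**Figure D3:**
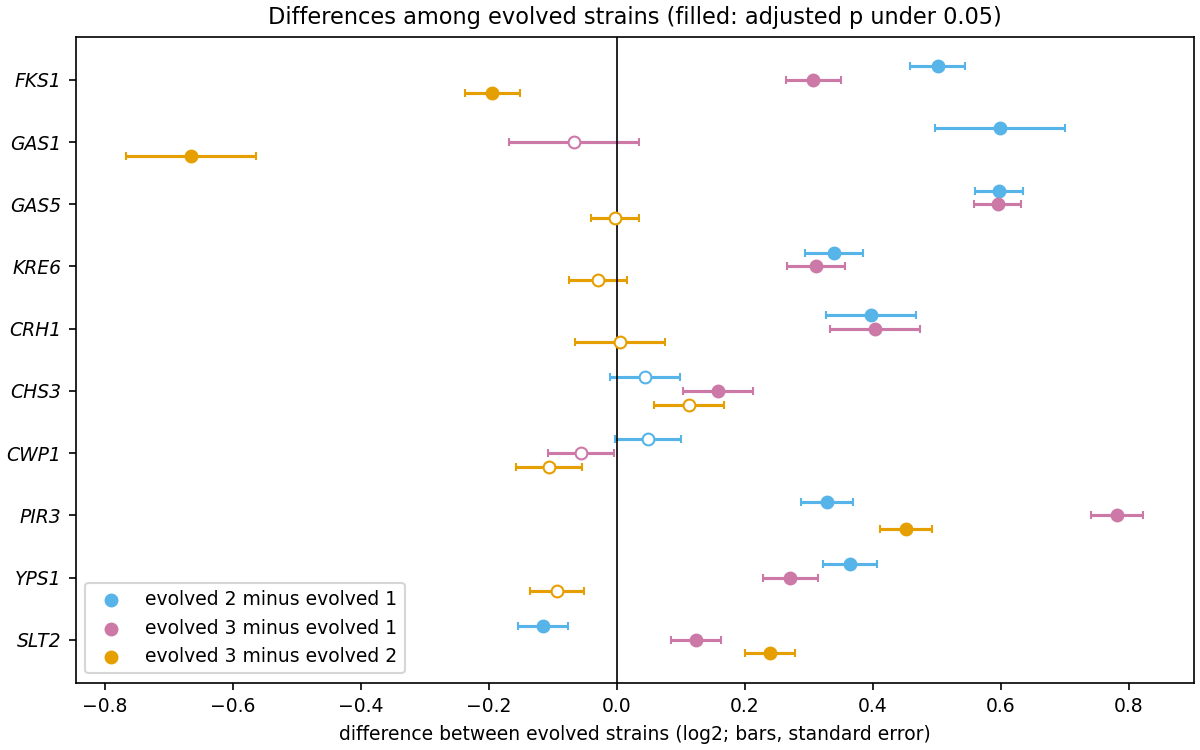
Log2 difference of each gene (rows) between pairs of evolved strains (horizontal axis), with standard errors. Filled points passed an adjusted p of 0.05 and open points did not. The points of strains 2 and 3 minus strain 1 lie to the right of 0 for FKS1, GAS5, KRE6, CRH1, PIR3 and YPS1.

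Most of these genes have a relative of similar function, and several relatives moved otherwise. GSC2, the catalytic subunit that replaces FKS1 in stationary cells and during sporulation, stood at 12.46 to 12.74 in the evolved arrays and at 12.78 in both parental arrays. It differed by -0.17 ± 0.02 (log2, SE; adjusted p = 0.000325), while FKS1 was higher by 1.23. GAS3, of the same family as GAS1 and GAS5, was not called (-0.04 ± 0.21, adjusted p = 0.879); its parental arrays had a standard deviation of 0.62. CWP2, which encodes another wall mannoprotein and lies next to CWP1 on the chromosome, rose by 0.64 ± 0.03 (log2, SE; adjusted p = 5.08e-07), with 12.66 to 13.14 in the evolved arrays, against 12.20 and 12.23 in the arrays labelled parental. CWP1 and CWP2 thus differed from parental in opposite directions. YJU2, on the other side of CWP1, differed by -1.57 ± 0.20 (log2, SE; adjusted p = 0.000244), in the direction of CWP1.

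UTR2, a relative of CRH1, fell by 0.77 ± 0.12 on the log2 scale (SE; adjusted p = 0.000562), to 4.45 ± 0.07 (SD, n = 6) in the evolved arrays, against 5.23 ± 0.33 (SD, n = 2) in the arrays labelled parental. It was close to background and above it on only 4 of the 6 evolved arrays. MKC7, a yapsin gene closely related to YPS1, was at background on all 8 arrays, so no difference is given. CHS1, a repair chitin synthase, rose by 1.14 ± 0.03 (log2, SE; adjusted p = 1.15e-07), and CHS2, the synthase of the septum, was not called (-0.11 ± 0.09, adjusted p = 0.26). The other PIR genes differed in direction. CIS3 fell, as given below with the mannoproteins, whereas HSP150 rose by 1.55 ± 0.02 and PIR1, a neighbour of PIR3 on the chromosome, by 0.69 ± 0.05 (log2, SE; adjusted p = 8.11e-09 and 6.36e-06). YKL162C, on the other side of PIR3, rose by 1.30 ± 0.03 (adjusted p = 4.94e-08). SKN1, the relative of KRE6, rose by 0.76 ± 0.04, and KDX1, a pseudokinase related to SLT2, by 0.27 ± 0.04 (adjusted p = 3.03e-06 and 0.000625).

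**Figure D4:**
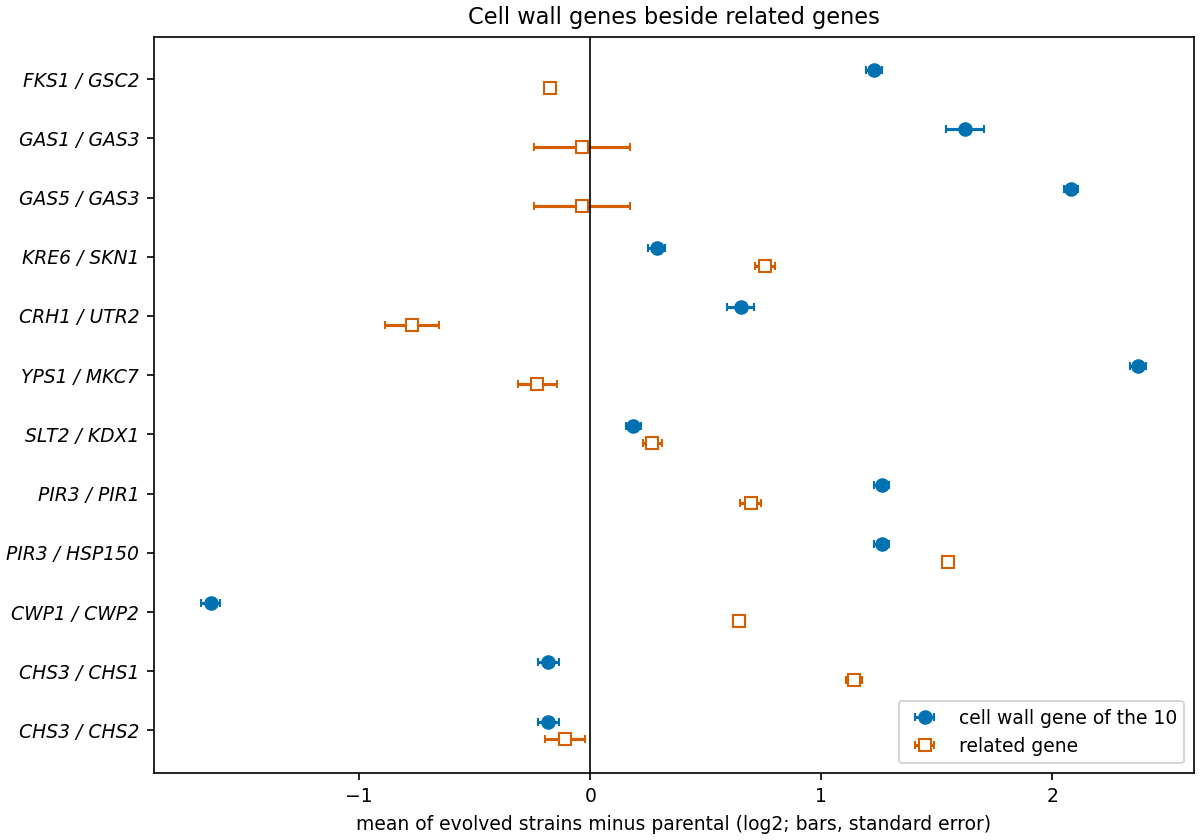
Mean of the evolved strains minus parental (log2, horizontal axis; bars are standard errors) for each of the 10 genes (filled circles) and a related gene (open squares). FKS1 and GSC2, CRH1 and UTR2, CWP1 and CWP2, and CHS3 and CHS1 lie on opposite sides of 0; MKC7 was at background on all arrays and GAS3 was not called.

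Around the 10 genes, 9 lists held 113 other genes of the wall, of which 111 had a probe set and 109 were above background on at least 1 array. In the mean of the evolved strains 62 of the 109 rose (56.9%), 30 fell (27.5%) and 17 were not called, with a median log2 difference of 0.25. Several lists therefore held genes that moved in both directions, beside the 43.3% and 43.4% of all genes. Where 10 of 12 genes for the synthesis and remodelling of the main glucan were called, 5 rose and 5 fell (median -0.01). GAS2 and FKS3 rose by 1.08 and 0.87 on the log2 scale, and EXG2, a surface glucanase, fell by 2.33, with levels of 5.02 to 5.79 in the evolved arrays, against 7.80 and 7.92 in the arrays labelled parental. SCW10, of a glucanase family, fell by 0.78. Of 11 genes for the branched glucan made with KRE6, 6 rose and 3 fell (median 0.31), SKN1 by 0.76 and KRE5 by 0.54, against KRE1 at -0.84 and BIG1 at -0.47.

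Chitin genes rose more often than they fell, 9 and 1 of 15 (median 0.20), although CHS3 itself was slightly lower. CHS7, needed to bring Chs3 out of the endoplasmic reticulum, rose by 1.45 ± 0.04 (log2, SE; adjusted p = 4.72e-08), and its level was 9.74 to 9.88 in the evolved arrays, against 8.35 and 8.31 in the arrays labelled parental. CHS1 followed, and UTR2 was the gene that fell. Of 17 wall mannoprotein genes above background, 9 rose and 6 fell (median 0.29). PIR5 showed the largest rise of these lists, at 2.77 ± 0.04 (log2, SE; adjusted p = 6.41e-09), with 8.31 to 8.73 in the evolved arrays, against 5.79 and 5.77 in the arrays labelled parental. CCW14, a structural glycoprotein of the inner wall, rose by 1.80, while CIS3 and SPI1 fell by 0.69 and 0.67 on the log2 scale. Besides YPS1, the yapsin YPS6 rose by 1.03 ± 0.03, YPS7 fell by 0.28 and YPS3, a neighbour of YPS1 on the chromosome, was not called (0.11 ± 0.15, adjusted p = 0.507).

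In protein mannosylation, which builds the sugar chains of mannoproteins, 11 of 20 genes rose and 6 fell (median 0.27), from PMT6 at 1.17 and MNN2 at 0.95 to ANP1 at -0.76 and HOC1 at -0.68. The wall sensors split, with 3 of 6 higher and 2 lower (median 0.16): WSC3 rose by 1.41 ± 0.03 (log2, SE; adjusted p = 3.79e-08) and MID2 by 0.75, while WSC4 fell by 0.73 and WSC2 by 0.35. Downstream of the sensors 11 of 18 signalling genes rose and 6 fell (median 0.15). SWI6 and SWI4, which form a transcription factor under Slt2, rose by 1.37 ± 0.05 and 1.11 ± 0.07 (log2, SE; adjusted p = 3.39e-07 and 4.89e-06). RLM1, the other factor under Slt2, was called lower, at -0.32 ± 0.10 (adjusted p = 0.0194), but not in strains 2 and 3 taken singly (adjusted p = 0.0782 and 0.405). Upstream, RHO1 was lower by 0.46 ± 0.03 (adjusted p = 7.42e-06) and PKC1 was not called (-0.0069 ± 0.03, adjusted p = 0.855). MSG5, a phosphatase of Slt2 and of the mating kinase Fus3, fell by 2.29 on the log2 scale, with levels of 7.89 to 8.01 in the evolved arrays, against 10.32 and 10.17 in the arrays labelled parental. MKK1, a kinase that acts on Slt2, fell by 0.91. Genes for the separation of daughter from mother cells rose in all 7 measured cases (median 0.75), SUN4 by 1.47 ± 0.07 and SCW11 by 1.14 ± 0.04. DAN1, like MKC7, was at background on all arrays.

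**Figure D5:**
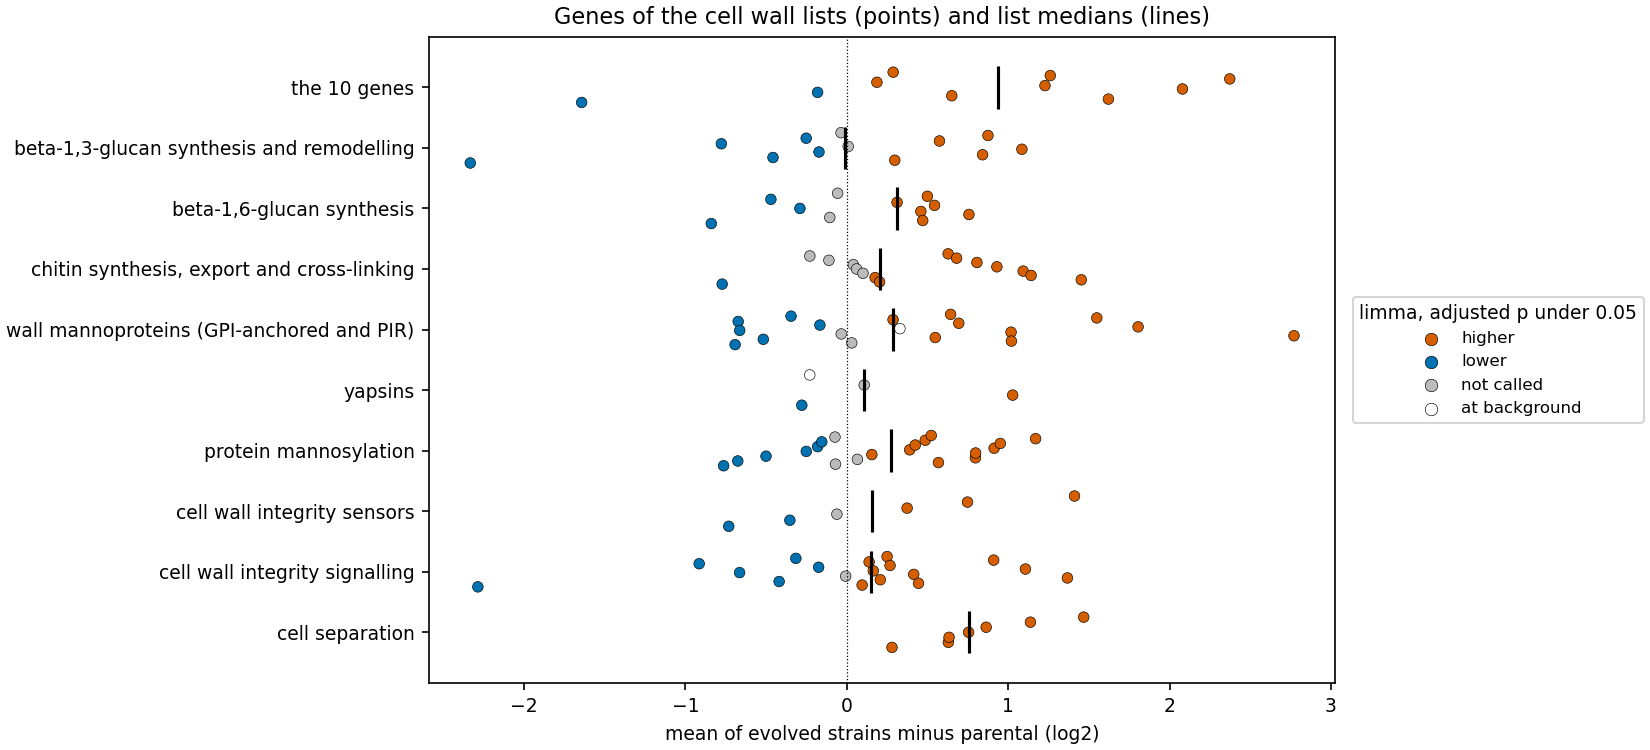
Mean of the evolved strains minus parental (log2, horizontal axis) for the 10 genes and the genes of 9 further wall lists. Points are genes coloured by their call, white points are genes at background on all arrays, and lines are medians of the genes above background. Most lists have points on both sides of 0, and the 7 cell separation genes lie on the right.

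The 3' over 5' signal of control transcripts, a measure of RNA quality, differed between the groups in both directions. For 7 control transcripts, the log2 signal of 3' over 5' probe sets was compared: 2 had the larger value in the evolved arrays and 5 in the parental ones. Evolved minus parental ran from -0.72 to 0.74, with -0.26 as the median. URA3, at background on all 8 arrays as a gene, was left out; with its control probe sets the counts were 2 and 6 of 8 and the median -0.37. The part of this in the differences of the 10 genes was not tested.

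For the 6 genes that changed by at least 2-fold, the genes with the nearest profile were found by the root mean square difference of log2 values over the 8 arrays, after each gene was centred on its own mean. YPS1 lay nearest to GSY1 and TAT2, at 0.03 and 0.05, and FKS1 to PMA2 and EFT2, at 0.05 and 0.06. CWP1 lay nearest to MOD5 and IPI1 (0.06 and 0.07), GAS1 to URA7 and NOP14 (0.07 and 0.10), and GAS5 to ERG4 and RTN1 (0.09 and 0.12). PIR3 had less close matches, THI72 and TSL1 at 0.13 and 0.14. None of these 12 genes was among the 10. Among the 10 themselves, KRE6 and SLT2 were closest (0.17), then CHS3 and SLT2 and then GAS5 and YPS1 (0.18 each). The distance was not scaled to the size of the change, so genes that moved little lie close whatever their pattern. CHS3 was lower and SLT2 higher than parental, and of the evolved strains KRE6 was highest and SLT2 lowest in strain 2.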

How the data were processed

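RNA of 8 yeast samples was measured on Affymetrix arrays from biotin-labelled cRNA made from 100 ng of total RNA. The deposited intensity values were made by the authors with RMA, per the submitters' processing notes, version not given in the sources used here; they were on a linear scale, and log2 was taken here. Median intensity ranged from 52.6 to 63.0 per array, and 2 arrays a group limit the precision. The platform annotation gave 5498 probe sets 1 S. cerevisiae gene, and the brightest was kept for 47 genes with several, leaving 5449 genes; symbols follow the R64 annotation, whose order gave the chromosomal neighbours. Background was the 95th percentile of 1746 probe sets of another yeast on each array, between 4.27 and 4.40 (log2).

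limma 3.58.1 in R 4.3.3 (statmod 1.5.0) was fitted with 1 coefficient per group, leaving 4 residual degrees of freedom, and tested on simulated data. An exact permutation of 2 against 2 arrays cannot go below p = 0.333. The labels call the arrays biological replicates without saying whether cultures were separate, so p-values may measure technical spread. The 10 genes and all lists were chosen with earlier results of these data known. Named were the 10 genes, the 2 largest called rises and falls in each list, the related genes, and the 2 nearest profiles of each gene that changed at least 2-fold. RLM1, RHO1 and PKC1 were added because the pathway as outlined above includes them. Alternatives were other normalizations, a pseudocount of 16, a filter on dim genes, probe set averaging, other spread estimates, replicate and strain blocks, and each array left out.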

Additional observations from a re-analysis of the deposited data

Results flagged for a closer look

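Of the 10 genes, 8 differed in their change from parental between the evolved strains by the moderated F test with limma. The gap between the highest and the lowest evolved strain, on the log2 scale, was 0.78 for PIR3 (strain 3 over strain 1), 0.66 for GAS1 (strain 2 over strain 3), 0.60 for GAS5, 0.50 for FKS1, 0.36 for YPS1 and 0.34 for KRE6 (each strain 2 over strain 1), 0.40 for CRH1 (strain 3 over strain 1) and 0.24 for SLT2 (strain 3 over strain 2). Adjusted p-values of the F test lay between 0.000209 for PIR3 and 0.00507 for SLT2. In the same test 68.9% of all genes were called. For GAS5, YPS1, KRE6 and CRH1, strains 3 and 2 were not called different in the main fit (adjusted p = 0.97, 0.138, 0.656 and 0.958). Which of these 2 strains was the highest is therefore not settled for them. No parental level enters these gaps, though the parental arrays enter the spread behind the p-values, and 8 of the 10 genes were also called when the 6 evolved arrays were fitted alone.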

How the results depend on the processing

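In the mean of the evolved strains against parental, FKS1, GAS1, GAS5, YPS1, CWP1, CRH1 and PIR3 kept their direction and call under every alternative tried. Against parental, the alternatives that changed a call concerned CHS3, KRE6 and SLT2. The number of genes called in the mean comparison was 4725 and fell to 3096 with the strain as a random block; 7 of the 10 genes stayed called there. With an array left out, that number was 4620 to 4753, and it was 4305 to 4678, 4352 to 4699 and 4299 to 4651 in strains 1, 2 and 3, with 10, 9, 8 to 10 and 9 of the 10 genes called. Between evolved strains it was 1941 to 3469 (strain 2 against 1; 7 to 8 of the 10 genes), 2340 to 3672 (3 against 1; 6 to 8) and 760 to 2559 (3 against 2; 3 to 5), against 1744 with all arrays in the last; the 4 lowest counts there, 760, 789, 795 and 825, each leave 1 array in a strain. The F test called 8 of the 10 genes in each of these fits.

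Among the 10 genes, signs turned only for differences that were not called. SLT2 in strain 2 against parental was -0.019 after quantile normalization and -0.016 after median centring. Between strains 2 and 1 these settings gave -0.098 and -0.018 for CWP1 and -0.0083 and -0.022 for CHS3, and with an array left out the values ran from -0.011 to 0.11 and from -0.013 to 0.10. CWP1 between strains 3 and 1 became 0.0054 without the first array of strain 1 and was otherwise below 0. Between strains 3 and 2, GAS5 was 0.0079 after median centring. With an array left out, GAS5 ran there from -0.027 to 0.022, CRH1 from -0.045 to 0.056 and KRE6 from -0.061 to 0.0032.

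Same-numbered arrays did not deviate together across genes (correlations of deviations between groups from -0.12 to 0.03). Each group gives a single such deviation, so this cannot show whether the numbers pair the samples. With the replicate block 4707 genes were called in the mean comparison. The fit on evolved arrays alone was chosen after seeing the data; it called YPS1 between strains 3 and 2 (adjusted p = 0.0454) and changed no other call of the 10 genes.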

Other observations

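Among the evolved strains, other wall genes were also often lowest in strain 1. Of the 109 wall genes above background outside the 10, 37 (33.9%) were called lower in strain 1 than in both other strains and 8 (7.34%) higher, where 1164 and 871 of all 5449 genes were. Of the 6 sensor genes these were 5, WSC1 (named SLG1 in the annotation), WSC3, WSC4, MID2 and MTL1, and of 17 mannoprotein genes 9, among them ECM33, CCW14, SED1, PIR1 and HSP150. Genes for cell separation ran the other way: DSE1, DSE4, SCW11 and EGT2, all of that list, were called highest in strain 1, 4 of 7 genes, and none was lowest there.

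SCW4 and ECM33 were picked after their values were seen. SCW4, of a glucanase family, stood at 10.45 ± 0.02 in strain 1, 11.43 ± 0.03 in strain 2, 10.99 ± 0.01 in strain 3 and 10.95 ± 0.001 in the arrays labelled parental (SD, n = 2 each). Strain 1 lay below and strain 2 above the parental arrays, by -0.50 and 0.48 (log2), so that the mean comparison showed no difference (adjusted p = 0.751), while strain 2 was 0.98 ± 0.03 above strain 1 (SE; adjusted p = 3.57e-05). ECM33, which encodes an anchored wall protein, was highest in strain 2, as GAS1 was, at 9.63 ± 0.02, against 8.82 ± 0.08 in strain 1, 8.97 ± 0.001 in strain 3 and 8.59 ± 0.05 in the arrays labelled parental (SD, n = 2 each).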
